A study of Mus musculus with 8 samples.

Results

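Islets hold a small population of resident macrophages among the endocrine cells, and 38 genes that these cells and their myeloid relatives use were followed in the islet arrays of mice lacking the cannabinoid 1 receptor (CB1R) in beta cells. The genes were listed by name, with earlier results of these data known: 27 lineage genes that mark macrophages or myeloid cells, 5 genes of antigen presentation on major histocompatibility complex (MHC) class II, and 6 genes of activation and sensing. All 38 had a probe, out of 21154 mouse genes with a probe on the array, and each gene was read from its brightest probe. Of these, 35 genes could be tested, since their probe stood well above background in 3 or more of the 7 mice, among 16954 genes tested in all. Values are log2 intensities relative to the 75th percentile of the same array, and a difference is the mean of β-CB1R-/- mice minus the mean of β-CB1R+/+ mice on that scale. Levels of different probes depend on the probe as well as on the transcript, so genes are compared between mice and not with each other.

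RNA came from hand-picked islets of 4 β-CB1R+/+ and 3 β-CB1R-/- male C57BL/6 mice on a standard diet, hybridised to 8 one-colour arrays, with 2 repeat arrays for β-CB1R-/- replicate 2. By the study's methods, β-CB1R-/- mice were Cnr1 flox/flox with the MIP-Cre/ERT transgene, in which the mouse insulin promoter drives a tamoxifen-activated Cre in beta cells; β-CB1R+/+ littermates were Cnr1 flox/flox without the transgene, and both received tamoxifen. The deletion and the transgene, which the controls lack, therefore cannot be told apart. The sample labels say only CB1 KO or CB1 WT, their account of the animals describes a global knockout, and the age of the mice used for the arrays was not given in the sources used here. All arrays shared 1 slide, β-CB1R+/+ on one side and β-CB1R-/- on the other, so that position on the slide and genotype cannot be told apart. Cnr1, the targeted gene, read −1.11, −0.77, −0.53 and −0.02 in β-CB1R+/+ replicates 1 to 4 and −2.30, −3.13 and −2.28 in β-CB1R-/- replicates 1 to 3, and all of the β-CB1R-/- mice lay below all of the β-CB1R+/+ mice. Its difference was −1.97 (SE 0.33, limma adjusted p = 0.193).

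Tissue macrophages depend on signalling through the receptor CSF1R, engulf dead cells and debris through scavenger and complement receptors, break the cargo down with lysozyme and lysosomal proteases, and load peptides on MHC class II for T cells. In islets they lie close to the capillaries and the beta cells, take up material that beta cells release, and are the main cells that carry MHC class II. The study asked about inflammation in islets of mice on a high-fat/high-sugar diet, whereas the arrays show the state on the standard diet. For freshly isolated β-CB1R-/- islets the study also reported lower expression of Nlrp3, Il1b and Tnfa. From its microarray analysis it reported lower pathways of TXNIP, IL-1β, TNF-α, NFκB and CB1R.

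Promoters of 6 members are shown because these genes form the groups described below: Marco, Trem2, Lyz1 and Lyz2 were highest together in 1 β-CB1R-/- mouse, and H2-Aa and H2-Eb1 encode MHC class II chains. Each is the 250 bases before the RefSeq start of the gene, read 5′ to 3′ on the gene's strand, in build GRCm38.p6. In Marco and Trem2 the capitals mark GAGGAAG, the purine-rich core that the myeloid factor PU.1 favours, found on either strand. In Lyz1 and Lyz2 they mark the longest run of bases that the promoters of this neighbouring, duplicated pair share at the same position. In H2-Aa and H2-Eb1 they mark CTGATTGG, the Y box of class II promoters.
Marco, chr1:120505025-120505274, minus strand: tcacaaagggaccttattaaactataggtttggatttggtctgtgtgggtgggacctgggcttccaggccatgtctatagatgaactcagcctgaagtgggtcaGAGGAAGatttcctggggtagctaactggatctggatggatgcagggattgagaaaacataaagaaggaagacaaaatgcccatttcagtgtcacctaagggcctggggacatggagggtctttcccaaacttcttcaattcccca
Trem2, chr17:48346151-48346400, plus strand: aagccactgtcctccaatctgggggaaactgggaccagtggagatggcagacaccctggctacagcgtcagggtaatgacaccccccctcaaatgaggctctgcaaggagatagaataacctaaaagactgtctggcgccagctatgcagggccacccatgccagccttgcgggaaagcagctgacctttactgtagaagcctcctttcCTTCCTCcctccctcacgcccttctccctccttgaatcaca
Lyz1, chr10:117292869-117293118, minus strand: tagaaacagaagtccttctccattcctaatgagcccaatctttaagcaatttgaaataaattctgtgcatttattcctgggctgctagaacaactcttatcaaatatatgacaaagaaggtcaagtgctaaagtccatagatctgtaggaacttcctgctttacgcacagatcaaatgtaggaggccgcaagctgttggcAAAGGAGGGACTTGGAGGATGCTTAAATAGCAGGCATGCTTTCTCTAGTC
Lyz2, chr10:117282273-117282522, minus strand: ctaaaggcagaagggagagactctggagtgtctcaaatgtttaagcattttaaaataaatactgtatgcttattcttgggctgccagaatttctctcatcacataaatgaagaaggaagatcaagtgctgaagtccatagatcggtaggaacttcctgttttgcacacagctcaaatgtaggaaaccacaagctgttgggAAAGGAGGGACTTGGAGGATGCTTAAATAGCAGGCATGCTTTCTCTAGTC
H2-Aa, chr17:34287824-34288073, minus strand: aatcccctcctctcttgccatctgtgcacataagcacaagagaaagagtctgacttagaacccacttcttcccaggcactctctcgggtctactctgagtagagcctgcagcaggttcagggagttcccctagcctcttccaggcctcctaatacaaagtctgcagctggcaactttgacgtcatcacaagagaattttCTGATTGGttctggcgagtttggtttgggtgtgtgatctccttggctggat
H2-Eb1, chr17:34305617-34305866, plus strand: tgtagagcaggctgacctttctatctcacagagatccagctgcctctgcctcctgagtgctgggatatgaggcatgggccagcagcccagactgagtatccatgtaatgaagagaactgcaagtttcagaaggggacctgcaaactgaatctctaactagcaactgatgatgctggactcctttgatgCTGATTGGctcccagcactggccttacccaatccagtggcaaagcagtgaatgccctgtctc
GAGGAAG ended 139 bases before the start of Marco and lay, on the other strand, 34 bases before the start of Trem2. The Lyz1 and Lyz2 promoters did not hold it. It was found before 8 of the 25 members with a promoter in the RefSeq table (28 promoters) and before 10.6% of all 32817 promoters of the same length. CTGATTGG lay 43 bases before H2-Aa and 54 bases before H2-Eb1, was found before 3 of the 25 members (Irf8 was the other one) and before 3.82% of all promoters. The Lyz1 and Lyz2 promoters matched at 152 of 250 bases, and the last 50 bases before the start were the same in both. A match describes the letters only and is not evidence that a factor binds there.

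The islets held a readable myeloid signal in every mouse. Of the 38 members, 32 were well above background on all 8 arrays, among them Csf1r, Adgre1, Cd68, Ptprc (CD45), Aif1, the C1q chains, Tyrobp and Fcer1g. Cd163, a haemoglobin scavenger receptor, was well above background on 2 β-CB1R+/+ arrays and on none of the β-CB1R-/- arrays; Msr1, scavenger receptor A, on 1 and on none; and Spi1, which encodes PU.1, on no array, so that these 3 were not tested. Mrc1, Fcgr3 and Cd86 were tested but were dim on some arrays. Of the markers of other immune cells with a probe, 1 of 8 for B cells (Cd22), 1 of 8 for dendritic cells, 2 of 6 for mast cells, 5 of 9 for neutrophils and 8 of 14 for T and NK cells were well above background on all arrays. The B cell genes Ms4a1 and Cd79a were so on 1 array each. All 11 beta cell markers and all 17 acinar markers with a probe were well above background on all arrays, so picked islets carried endocrine and exocrine RNA. The brightest acinar marker, Cela3b, had means of 10.92 and 11.03 in β-CB1R+/+ and β-CB1R-/- mice. Ins1, the brightest beta cell marker, had 10.94 and 10.83. The part of exocrine tissue in the myeloid signal was not tested. In whole islets, fewer cells of a type and less RNA per cell cannot be told apart.

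No member passed an adjusted p of 0.05 in limma, and the smallest adjusted p of any member was 0.999; over all genes 0.171% passed (29 of 16954). At an unadjusted p under 0.05 there were 4 of 35 members (11.4%): Marco, Lyz1, Itgax and Mrc1, all of them lineage genes and all higher in β-CB1R-/- mice. Mrc1 entered the test through the β-CB1R-/- mice, where it is high; among the 32 members well above background on all arrays, a count chosen after seeing the data, the other 3 were left (9.38%), against 3.47% of such genes. With a mouse left out the count was 2 without β-CB1R+/+ replicate 1, 1 without replicate 2, 1 without replicate 3 and 5 without replicate 4 (Mrc1 among them, which is then dim on every β-CB1R+/+ array and cannot be read), and 7, 2 and 3 without β-CB1R-/- replicates 1, 2 and 3. The same unadjusted threshold was met by 3.9% of all genes tested in either direction and by 1.88% with a higher value in β-CB1R-/- mice. The mice of the genotypes did not overlap for 1 member, C1qb, higher in β-CB1R-/- mice, which is 2.86% of the members tested; over all genes this held for 4.82% in either direction and 2.61% in that direction. Of the 35 differences 21 were above 0, 13 below and 1 at 0, with a median of 0.09, against −0.039 over all genes tested, of which 44.3% were above 0. The size of difference that 4 and 3 mice could resolve was limited: the 95% confidence interval of a member reached from 0.44 to 1.67 to either side, with a median of 0.70, against 0.594 over all genes tested. The repeat arrays of β-CB1R-/- replicate 2 differed with an SD of 0.245 over the members and 0.373 over all genes tested.

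**Figure D1:**
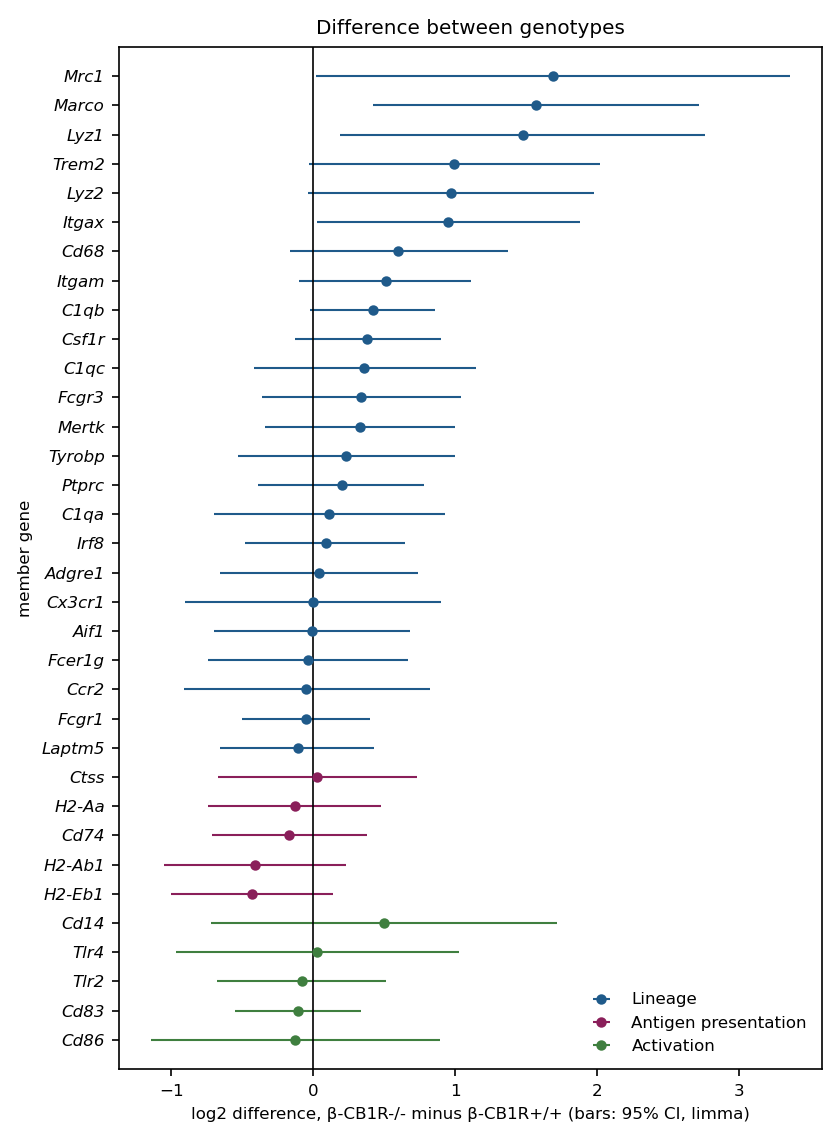
Difference between genotypes for the members described (horizontal axis, log2 intensity of β-CB1R-/- minus β-CB1R+/+ mice; points are estimates and bars 95% confidence intervals from limma), grouped by role. Intervals of Marco, Lyz1 and Itgax lie above 0, as does that of Mrc1, whose β-CB1R+/+ arrays were dim but for 1, so that its estimate cannot be read as exact; those of the class II genes extend to both sides of 0; no member passed the adjusted threshold.

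Marco and Lyz1 had the largest estimates among the members well above background on all arrays, and neither passed the adjusted threshold. Marco, a scavenger receptor for bacteria and particles, read −1.65, −2.79, −2.70 and −2.82 in β-CB1R+/+ replicates 1 to 4 and −1.93, −0.94 and 0.11 in β-CB1R-/- replicates 1 to 3. The first β-CB1R-/- mouse lay among the β-CB1R+/+ values and the other 2 lay above all of them. The difference was 1.57 (SE 0.50; 95% CI 0.42 to 2.72; limma p = 0.0135, adjusted p = 0.999; exact permutation p = 0.0857), and it was 1.06 without β-CB1R-/- replicate 3 and 0.90 with normexp, a model-based background correction. Mrc1, the mannose receptor CD206 of resident macrophages, read −4.97, −4.66, −4.58 and −1.78 in β-CB1R+/+ mice and −2.55, −2.06 and −2.31 in β-CB1R-/- mice. All β-CB1R-/- arrays were well above background, whereas replicate 4 gave the only such array among β-CB1R+/+ mice and was also the highest mouse, so the gene would have passed the filter through the β-CB1R-/- arrays alone. Its difference was 1.69 (SE 0.72; 95% CI 0.02 to 3.36; limma p = 0.0476, adjusted p = 0.999; exact permutation p = 0.143). With normexp background correction the difference was 0.35, nearer to 0 than under any other alternative. With each dim β-CB1R+/+ array set to the lowest intensity well above background on it, the ratio was 1.93-fold. Without β-CB1R+/+ replicate 4 every β-CB1R+/+ array is dim, and the level was at least 2.72-fold higher in β-CB1R-/- mice on the same floor; this comparison and the one without a mouse for Gpnmb were chosen after seeing the data.

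Lysozyme, which digests bacterial walls, is encoded by the duplicated genes Lyz1 and Lyz2, and cross-hybridisation between their transcripts was not tested. Lyz1 read 0.15, −0.16, −0.31 and 1.31 in β-CB1R+/+ mice and 0.64, 1.74 and 2.78 in β-CB1R-/- mice, a difference of 1.48 (SE 0.56; 95% CI 0.19 to 2.76; limma p = 0.0298, adjusted p = 0.999; exact permutation p = 0.0857). Lyz2 read −1.65, −2.49, −1.43 and −1.51 against −1.67, −0.81 and 0.08, a difference of 0.97 (SE 0.44; limma p = 0.0585; exact permutation p = 0.143). In both genes β-CB1R-/- replicate 3 was the highest mouse, and without it the differences were 0.95 and 0.53. Trem2, a lipid-sensing receptor of phagocytes, read −2.12, −1.61, −1.73 and −0.93 against −1.37, −0.81 and 0.37. Its difference was 0.99 (SE 0.44; limma p = 0.0555; exact permutation p = 0.114) and 0.51 without β-CB1R-/- replicate 3. Itgax, the integrin chain CD11c carried by islet macrophages and dendritic cells, read −1.79, −2.77, −3.05 and −2.26 against −1.91, −1.90 and −0.73. Its difference was 0.95 (SE 0.40; 95% CI 0.03 to 1.88; limma p = 0.045, adjusted p = 0.999; exact permutation p = 0.114), and 0.56 without β-CB1R-/- replicate 3. β-CB1R-/- replicate 3 was thus the highest of the 7 mice in Marco, Lyz1, Lyz2, Trem2 and Itgax, by 1.86-fold to 2.28-fold over the next mouse.

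**Figure D2:**
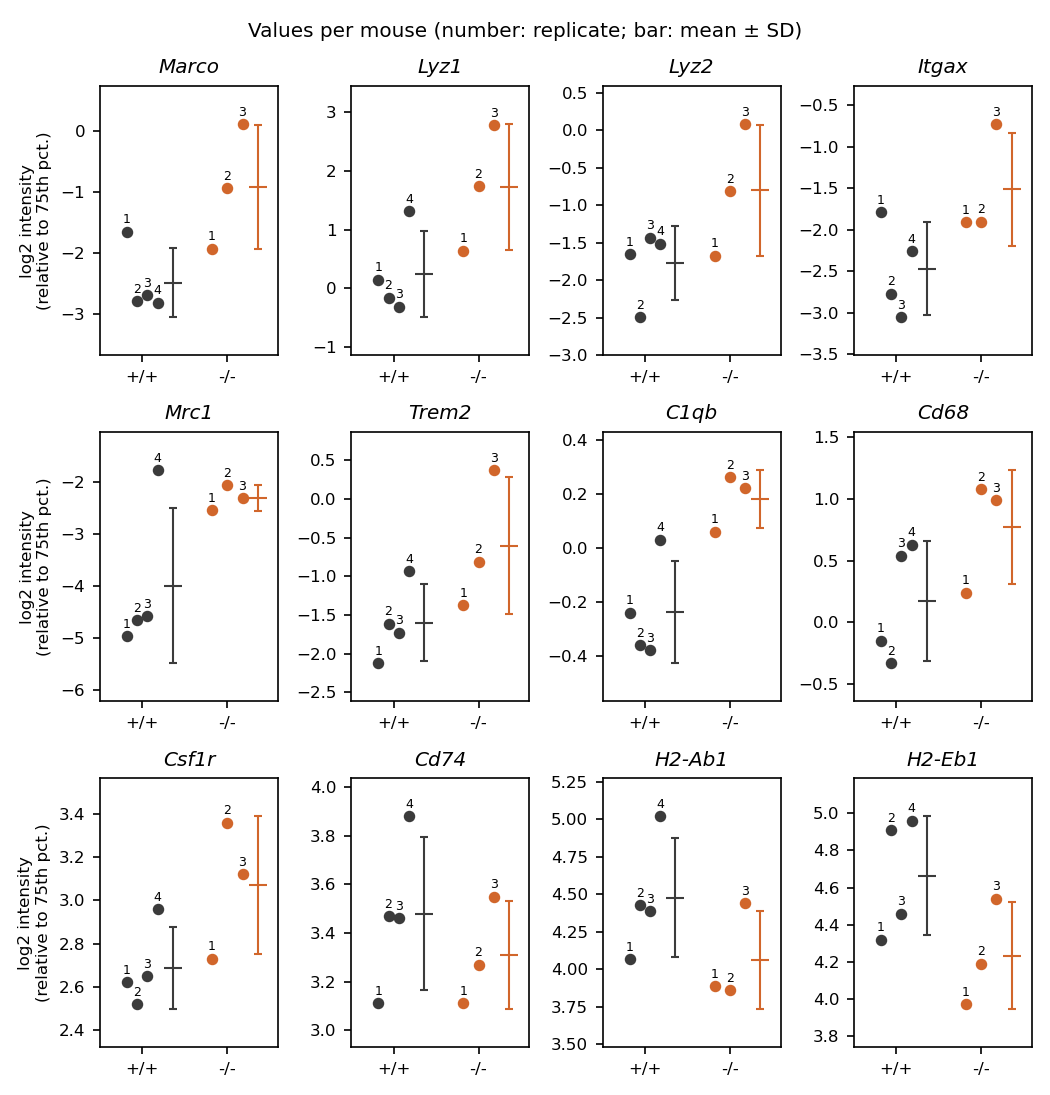
Log2 intensity relative to the array's 75th percentile (vertical axes, each with its own range) of 12 members in the 4 β-CB1R+/+ (dark) and 3 β-CB1R-/- mice (orange); digits are replicate numbers, and bars are means ± SD. β-CB1R-/- replicate 3 is the highest mouse in Marco, Lyz1, Lyz2, Itgax and Trem2, β-CB1R+/+ replicate 4 stands apart in Mrc1, and C1qb is the 1 member whose genotypes do not overlap.

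Complement C1q, which tags debris for uptake and is made by macrophages, was measured by the genes of its 3 chains. C1qb read −0.24, −0.36, −0.38 and 0.03 in β-CB1R+/+ mice and 0.06, 0.26 and 0.22 in β-CB1R-/- mice. The highest β-CB1R+/+ mouse, at 0.03, lay just under the lowest β-CB1R-/- mouse, at 0.06, and the difference was 0.42 (SE 0.19; limma p = 0.0599, adjusted p = 0.999; exact permutation p = 0.0571). C1qa read 0.95, 2.23, 1.90 and 1.87 against 1.57, 1.59 and 2.39, a difference of 0.11 (SE 0.35) that turned to −0.15 without β-CB1R+/+ replicate 1 and to −0.16 without β-CB1R-/- replicate 3. C1qc read −0.15, 0.37, 0.33 and 0.86 against 0.14, 0.69 and 1.32, a difference of 0.36 (SE 0.34). Without β-CB1R-/- replicate 3 the C1qc difference was 0.06, without β-CB1R-/- replicate 1 it was 0.65 and without β-CB1R+/+ replicate 1 it was 0.20. The other 2 chains overlapped between genotypes, and their intervals, −0.70 to 0.93 for C1qa and −0.42 to 1.15 for C1qc, hold the value of C1qb.

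Genes used to identify macrophages and leukocytes overlapped between the genotypes throughout. Csf1r, the receptor for the growth factors CSF1 and IL-34, read 2.62, 2.52, 2.65 and 2.96 in β-CB1R+/+ mice and 2.73, 3.36 and 3.12 in β-CB1R-/- mice, a difference of 0.38 (SE 0.22; 95% CI −0.13 to 0.90). Its other probes gave 0.30 and 0.12. Cd68, a lysosomal glycoprotein used to stain macrophages, read −0.15, −0.33, 0.54 and 0.63 against 0.24, 1.08 and 0.99, a difference of 0.60 (SE 0.33; 95% CI −0.16 to 1.37). Both genes were highest in β-CB1R-/- replicate 2, and without it the differences were 0.24 for Csf1r and 0.45 for Cd68. Without β-CB1R-/- replicate 1 they were 0.55 and 0.87. Adgre1, an adhesion receptor on the surface of mouse macrophages, read −1.39, −1.33, −1.29 and −0.79 against −1.41, −1.57 and −0.50, a difference of 0.04 (SE 0.30; 95% CI −0.66 to 0.74). Ptprc, the phosphatase CD45 of all leukocytes, read −2.35, −2.43, −2.58 and −1.83 against −1.93, −1.91 and −2.45, a difference of 0.20 (SE 0.25). Cx3cr1, the fractalkine receptor, read −0.53, 0.23, 0.06 and 0.24 against −0.42, −0.52 and 0.94, with means of 0.00 in both genotypes (SE of the difference 0.39). Aif1 (IBA1), a macrophage actin-binding protein, read −0.19, 0.24, 0.19 and 0.73 against 0.08, −0.14 and 0.75, a difference of −0.01 (SE 0.30). Another Adgre1 probe gave −0.09 (SE 0.22), and another Cx3cr1 probe that was well above background on all arrays gave 0.34 (SE 0.41). For the brightest probes of Adgre1, Cx3cr1 and Aif1 the estimate was near 0, but their intervals, the widest from −0.90 to 0.90, do not exclude differences of the size seen in Cd68, and without β-CB1R-/- replicate 3, the highest mouse in each, they were −0.29, −0.47 and −0.27.

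The signalling adaptors Tyrobp (DAP12) and Fcer1g carry the signals of Trem2, Fc receptors and related receptors. Tyrobp read 0.16, 0.96, 0.55 and 0.86 in β-CB1R+/+ mice and 0.43, 0.60 and 1.57 in β-CB1R-/- mice, and Fcer1g read 1.65, 1.84, 1.67 and 1.88 against 1.56, 1.17 and 2.45. Their differences were 0.23 (SE 0.33) and −0.04 (SE 0.30), with β-CB1R-/- replicate 3 the highest mouse in both; without it they were −0.12 and −0.40. The Fc receptor genes Fcgr1 and Fcgr3 gave −0.05 (SE 0.19) and 0.34 (SE 0.30). Of the remaining lineage genes, the monocyte chemokine receptor gene Ccr2 gave −0.05 (SE 0.38), the engulfment receptor gene Mertk 0.33 (SE 0.29), the transcription factor gene Irf8 0.09 (SE 0.24) and the lysosomal membrane gene Laptm5 −0.11 (SE 0.24). Itgam, the integrin chain CD11b, gave 0.51 (SE 0.26) on its brightest probe, which was highest in β-CB1R-/- replicates 1 and 2, and −0.53 (SE 0.25) on another tested probe, so no direction can be given for this gene. Spi1 read −4.20, −4.97, −3.82 and −5.96 against −3.36, −3.55 and −4.34, all below the level called well above background.

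Over the 24 lineage genes tested, 18 differences were above 0, 5 below and 1 at 0, with a median of 0.34. At an unadjusted p under 0.05 were 4 (16.7%, all higher, Mrc1 included), against 3.9% of all genes in either direction and 1.88% higher; among the 22 well above background on all arrays were 3 (13.6%), against 3.47% and 1.51%. β-CB1R-/- replicate 3 was the highest mouse in 13 of these 24 genes, against 4 for β-CB1R-/- replicate 2, 1 for β-CB1R-/- replicate 1, 4 for β-CB1R+/+ replicate 4 and 1, 1 and 0 for β-CB1R+/+ replicates 1 to 3. With each gene centred on its mean over the mice, the mean of the lineage genes was −0.32, −0.32, −0.35 and 0.21 in β-CB1R+/+ mice and −0.03, 0.20 and 0.62 in β-CB1R-/- mice. The genotypes overlapped through β-CB1R+/+ replicate 4. The median difference reached from 0.23 to 0.47 with each mouse left out in turn and was 0.37 without β-CB1R-/- replicate 3 and 0.47 without β-CB1R+/+ replicate 4. With normexp background correction it was 0.15, and with housekeeping scaling, which moved the median of all genes to 0.16, it was 0.54.

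**Figure D3:**
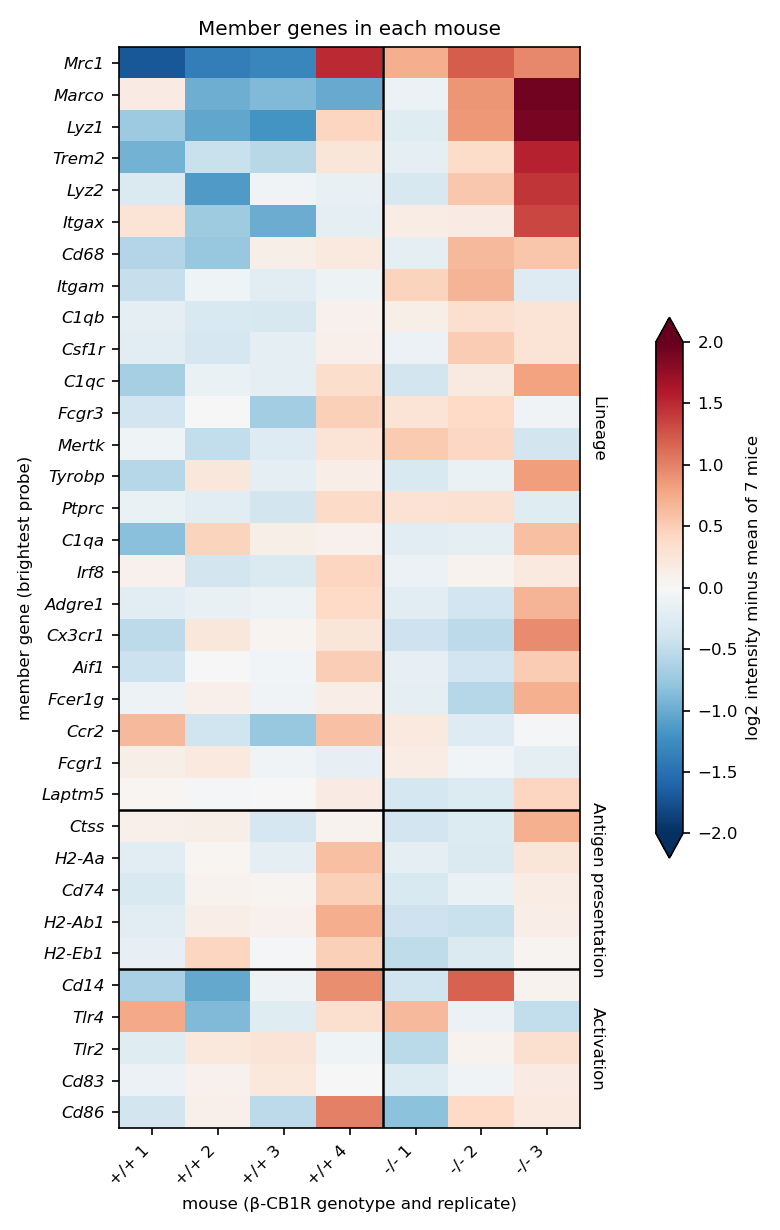
Log2 intensity of each member described in each mouse, minus that gene's mean over the 7 mice (colour scale from −2 to 2; rows are genes ordered by difference within each role, columns are mice). Red cells gather in β-CB1R-/- replicate 3 among lineage genes and in β-CB1R+/+ replicate 4 among the class II genes.

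No antigen presentation gene had an unadjusted p under 0.05, and the genotypes overlapped in all 5. H2-Ab1, the class II A beta chain, read 4.07, 4.43, 4.39 and 5.02 in β-CB1R+/+ mice and 3.89, 3.86 and 4.44 in β-CB1R-/- mice, a difference of −0.41 (SE 0.28; 95% CI −1.05 to 0.23), and its other probe gave −0.41 as well. H2-Eb1, the class II E beta chain, read 4.32, 4.91, 4.46 and 4.96 against 3.97, 4.19 and 4.54, a difference of −0.43 (SE 0.25; 95% CI −1.0 to 0.14). H2-Aa, the A alpha chain, read 0.55, 0.82, 0.61 and 1.38 against 0.60, 0.50 and 1.03, a difference of −0.13 (SE 0.26). Cd74, the invariant chain that escorts class II to the endosome, read 3.11, 3.47, 3.46 and 3.88 against 3.11, 3.27 and 3.55, a difference of −0.17 (SE 0.24). β-CB1R+/+ replicate 4 was the highest mouse in all 4 of these genes, and the genotypes overlapped in each. Ctss, the protease cathepsin S that trims the invariant chain, read 2.82, 2.84, 2.38 and 2.78 against 2.33, 2.44 and 3.43, a difference of 0.03 (SE 0.30), with β-CB1R-/- replicate 3 the highest mouse. The 5 genes had a median difference of −0.17, 4 below 0 and 1 above. Without β-CB1R+/+ replicate 4 the median was −0.036, and it reached from −0.32 to −0.036 with each mouse left out in turn. With housekeeping scaling, which moved the median of all genes from −0.039 to 0.16, it was 0.032.

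Activation and sensing genes showed no common direction. Cd14, the co-receptor for bacterial lipopolysaccharide, read −1.53, −1.90, −0.97 and 0.05 in β-CB1R+/+ mice and −1.27, 0.30 and −0.80 in β-CB1R-/- mice, a difference of 0.50 (SE 0.53; 95% CI −0.72 to 1.72) that was 0.05 without β-CB1R-/- replicate 2. Its highest mice, β-CB1R+/+ replicate 4 and β-CB1R-/- replicate 2, belong to the 3 mice with high immediate-early genes, whose list mean was −1.91, −2.20, 2.87 and 1.79 in β-CB1R+/+ mice and −1.44, 2.89 and −1.99 in β-CB1R-/- mice; the part of this in Cd14 was not tested. Tlr4, the lipopolysaccharide receptor, read −1.25, −2.90, −2.26 and −1.70 against −1.36, −2.13 and −2.50, a difference of 0.03 (SE 0.43). Cd83, a surface protein of activated antigen-presenting cells, read −0.89, −0.69, −0.56 and −0.76 against −1.05, −0.84 and −0.61, a difference of −0.11 (SE 0.19). The lipoprotein receptor gene Tlr2 gave −0.08 (SE 0.26) and the costimulator gene Cd86 −0.13 (SE 0.44). The 6 genes had a median of −0.095, with 2 above 0 and 4 below, and −0.24 to 0.082 with each mouse left out in turn. None had an unadjusted p under 0.05.

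Markers of other cells varied beside the lineage genes. The mean of the 11 fibroblast and stellate cell markers, each gene centred, was −0.91, −1.23, −0.50 and 1.73 in β-CB1R+/+ replicates 1 to 4 and 0.24, 0.62 and 0.04 in β-CB1R-/- replicates 1 to 3, with a median difference of 0.60. As for the lineage genes, β-CB1R+/+ replicates 1 to 3 lay below every β-CB1R-/- mouse, and the genotypes overlapped through β-CB1R+/+ replicate 4. The 6 alpha cell markers had means of 0.40, 0.25, 0.36 and −0.04 against −0.30, −0.66 and −0.02 and a median difference of −0.67. An unadjusted limma p under 0.05 was met by 3 of 6, all lower in β-CB1R-/- mice, against 3.9% of all genes in either direction. The 5 erythroid markers had means of 0.40, −0.26, 0.21 and 1.76 against −0.10, −1.97 and −0.03 and a median difference of −1.3, all 5 lower. Of the 11 beta cell markers 9 were lower, with a median of −0.14. β-CB1R+/+ replicate 4 was the highest mouse in 9 of the 35 members. β-CB1R-/- replicate 3, the highest mouse in 15 of the 35, had a fibroblast mean of 0.04 and the lowest acinar mean among β-CB1R-/- mice, −0.62 against 0.43 and 0.51; β-CB1R+/+ replicate 2 had −0.87 over the same 17 acinar genes. The part of these markers in the members' values was not tested.

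**Figure D4:**
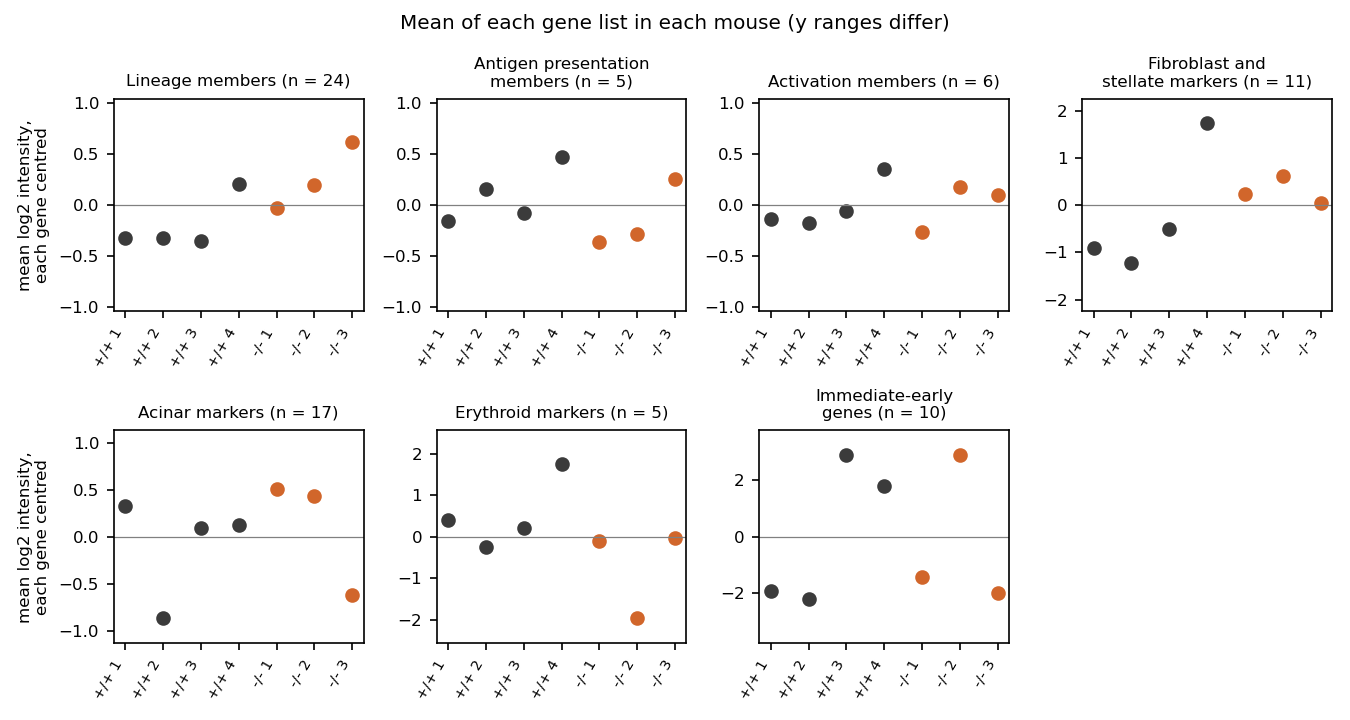
Mean log2 intensity of each gene list in each mouse after centring each gene on its mean over the 7 mice (vertical axes, ranges differ between panels; dark points β-CB1R+/+, orange points β-CB1R-/- mice; n is the number of genes averaged). β-CB1R-/- replicate 3 has the highest lineage mean, 0.62, and β-CB1R+/+ replicate 4 the highest antigen presentation and fibroblast means, 0.47 and 1.73.

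Further myeloid genes, in 7 lists of growth factors and receptors, transcription factors, leukocyte signalling, phagosome and lysosome, resident macrophage markers, the class II pathway and cytokines, held 105 genes, of which 89 were tested. Of these, 56 differences were above 0, 31 below and 2 at 0, with a median of 0.12, and 1 gene passed the adjusted threshold. At an unadjusted p under 0.05 were 7 higher and 2 lower in β-CB1R-/- mice (10.1%), against 3.9% of all genes, 1.88% higher. The genotypes did not overlap for 7 higher and 2 lower (10.1%), against 4.82% of all genes, 2.61% higher. Csf2rb2 and Fgr, among those with a higher estimate, and H2-Oa, with a lower one, were dim on some arrays of the genotype in which they were low. Among the 69 genes well above background on all arrays, 4 higher and 1 lower had an unadjusted p under 0.05 (7.25%), against 3.47%, and the genotypes did not overlap for 4 higher and 1 lower (7.25%), against 4.85%. The gene past the threshold was Csf2rb, the common beta chain of the receptors for GM-CSF, IL-3 and IL-5, which read −2.65, −3.12, −3.00 and −1.93 in β-CB1R+/+ mice and 0.58, 1.70 and 1.62 in β-CB1R-/- mice, well above background on all arrays but 1 from a β-CB1R+/+ mouse. It rose by 3.98 (SE 0.38; limma adjusted p = 0.0165), and its adjusted p lay between 0.00343 and 0.37 over 19 alternatives, 7 of which took it past 0.05. Its other tested probe was dim on 2 β-CB1R+/+ arrays, and with these at the floor it was 2.42-fold higher in β-CB1R-/- mice (adjusted p = 0.221). Its neighbouring copy Csf2rb2, which serves the IL-3 receptor, read −2.55, −4.07, −2.65 and −1.48 against −0.64, −0.25 and −0.28. It was dim on 2 β-CB1R+/+ arrays, and with these at the floor it was 4.78-fold higher in β-CB1R-/- mice (limma adjusted p = 0.684). Another Csf2rb2 probe was dim on every β-CB1R+/+ array and passed the filter only through β-CB1R-/- mice, so its test carries no weight. The ratio for that probe was at least 3.45-fold, and the probes may not tell the copies apart. The partner chain genes Csf2ra and Il3ra gave −0.14 (SE 0.22) and −0.66 (SE 0.42), and the CSF1R ligand genes Csf1 and Il34 0.21 (SE 0.29) and 0.32 (SE 0.25).

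Of the remaining myeloid genes with an unadjusted p under 0.05 and genotypes that did not overlap, Runx1, a haematopoietic transcription factor gene, read −2.73, −2.58, −2.93 and −2.85 in β-CB1R+/+ mice and −1.28, −1.37 and −1.52 in β-CB1R-/- mice. Its difference was 1.38 (SE 0.18; limma adjusted p = 0.0633) on the brightest probe and 0.50 (SE 0.73) on the other; with normexp it was 0.64 (adjusted p = 0.673), and with the mean over probes 0.94 (0.999). Cd36, a scavenger receptor for oxidised lipids and a fatty acid carrier, read −1.94, −2.38, −2.28 and −1.43 against −1.35, −1.02 and −0.85, a difference of 0.93 (SE 0.28; adjusted p = 0.999). Lyve1, a hyaluronan receptor of lymphatic endothelium and of a class of resident macrophages, was lower in β-CB1R-/- mice: −1.21, −0.17, −0.14 and −0.53 against −2.21, −1.41 and −1.36, a difference of −1.15 (SE 0.34; adjusted p = 0.999). H2-Oa, which restrains peptide loading on class II, read −3.47, −3.15, −3.09 and −2.90 against −4.30, −3.61 and −3.64, a difference of −0.70 (SE 0.25; adjusted p = 0.999). Its probe was well above background on 3 β-CB1R+/+ arrays and on 2 from β-CB1R-/- mice, and with the dim β-CB1R-/- arrays at the floor the ratio was 1.35-fold. Cnr2, the gene of the second cannabinoid receptor, which is best known in immune cells, read 1.39, 1.48, 1.21 and 1.51 against 2.06, 2.69 and 1.38, a difference of 0.65 (SE 0.31, limma adjusted p = 0.999) with overlapping genotypes. The study reported significantly lower Cnr2 expression in β-CB1R-/- islets, which is the opposite direction. It proposes fewer infiltrating or resident macrophages as the likely reason, which was not tested here.

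**Figure D5:**
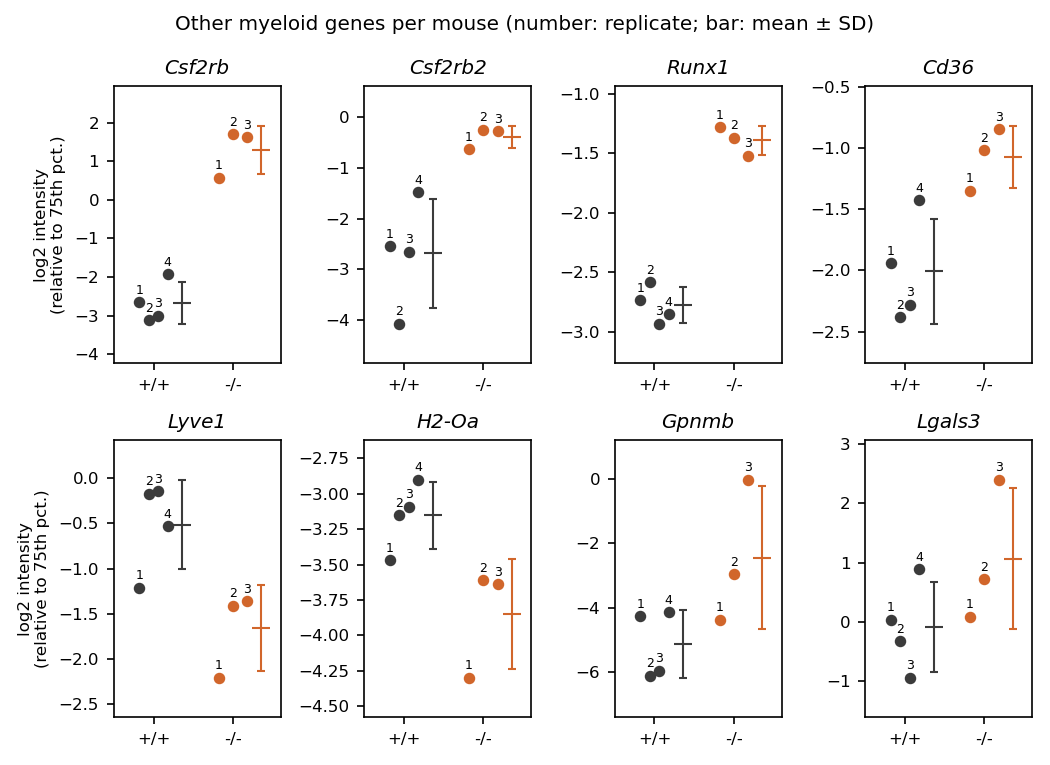
Log2 intensity relative to the array's 75th percentile (vertical axes, each with its own range) of 8 further myeloid genes in the 4 β-CB1R+/+ (dark) and 3 β-CB1R-/- mice (orange); digits are replicate numbers, bars are means ± SD, and Gpnmb was well above background on none of the β-CB1R+/+ arrays. Csf2rb, Csf2rb2, Runx1, Cd36, Lyve1 and H2-Oa do not overlap between genotypes, and in Gpnmb and Lgals3 β-CB1R-/- replicate 3 is the highest mouse.

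Some genes were high in a single mouse, as noticed after their values were seen. Gpnmb, a glycoprotein of lipid-laden phagocytes, read −0.02 in β-CB1R-/- replicate 3, 7.64-fold over the next mouse at −2.96. It was well above background on 3 of the 4 β-CB1R-/- arrays and on none of the β-CB1R+/+ arrays. With the β-CB1R+/+ arrays at the floor, its genotype mean was 2.5-fold higher in β-CB1R-/- mice, and 1.08-fold without replicate 3. Since a dim β-CB1R-/- array was kept as read, these ratios are not lower bounds. Lgals3 (galectin-3), another product of active phagocytes, read 2.40 in the same mouse, 2.85-fold over the next. In β-CB1R+/+ replicate 4, Pf4, Cbr2 and Clec10a, which together with Mrc1 mark resident macrophages of connective tissue, read 0.10, −0.37 and −1.57, and the next mouse lay at −1.20, −1.53 and −2.30. Clec10a was well above background on only 1 β-CB1R+/+ array. Of the 12 resident macrophage markers tested, Folr2 and Cd209f were also highest in that mouse. Lyve1, Siglec1, Ms4a7, Stab1, P2ry12, P2ry6 and Sall1 were highest in other mice, and P2ry12, at −1.62, was lowest in β-CB1R+/+ replicate 4, so the list as a whole did not set this mouse apart. In β-CB1R+/+ replicate 1, Timd4 read −1.10 and the next mouse −4.17, and Cd163 and Cd209a, at −1.67 and −1.28, were also highest there, over −2.81 and −3.15. The array of that mouse had a median negative-control intensity of 7.82, against 4.48 to 5.44 on the others, and its part in these values was not tested.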

How the data were processed

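Islet RNA of 7 mice was measured on 8 one-colour Agilent arrays. The authors deposited spot intensities from Feature Extraction 11.5.1.1, after its background correction and without scaling across arrays, and a Z score per array, which matched the Z score of the log10 intensity to within 0.00503. For the array analysis the study's methods refer to another article. Log2 values of the deposited intensities (59305 spots, controls excluded) were set against the 75th percentile of the array (235.5 to 362.1 intensity units). Spots with a mark for uneven or outlying pixels were dropped, spots of a probe and the repeat arrays were averaged, and no spot was saturated. Between 33304 and 39988 probes were well above background per array.

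Probes that stood well above background in 3 or more of the 7 mice (39165 of 55681) were fitted with limma 3.58.1 (two-sided; lmFit and eBayes, R 4.3.3), and p-values were adjusted by Benjamini-Hochberg over all of them and a threshold of 0.05. The exact permutation test, two-sided, used the 35 splits of the mice and cannot go below p = 0.0286. Accessions were matched to RefSeq symbols (GRCm38.p6; 28026 probes), and no coordinates were mixed with the arrays' build. The number of arrays limits the precision, and p-values measure only the spread between these mice. On simulated data over 39165 probes, the fit recovered 8% of the log2 changes of 1, 60% where the change was 2, 82% where it was 3 and 88% where it was 4, with 5 false calls.

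The members and all lists were chosen with earlier results of these data known. Single values of 1 member of the activation class are not reported here. Values per mouse are given for members with an adjusted or unadjusted p under 0.05 or genotypes that do not overlap and for defining genes; from other lists, genes past the adjusted threshold, or with an unadjusted p under 0.05 and no overlap, at most 5 a list, and Csf2rb, Cnr1 and Cnr2 are named. Alternatives were normexp background (offset 50), quantile, Z score and housekeeping scaling, the deposited Z scores, other filters, each repeat array alone, the replicate block, an intensity trend, the methods' t test, the mean over probes and each mouse left out in turn.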

Additional observations from a re-analysis of the deposited data

Results flagged for a closer look

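In 41 described genes the 4 β-CB1R+/+ mice were checked for a single mouse far from the other 3, which chance gives in about 1 of 20 genes (about 2.05 here). It was found in 3 members. Mrc1 read −1.78 in β-CB1R+/+ replicate 4 and −4.97 to −4.58 in the other 3. Marco read −1.65 in β-CB1R+/+ replicate 1 and −2.82 to −2.70 in the others. Ctss read 2.38 in β-CB1R+/+ replicate 3 and 2.78 to 2.84 in the others.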

How the results depend on the processing

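No member passed the adjusted threshold under 19 of the 20 alternatives; without β-CB1R+/+ replicate 4 the count was 1, Mrc1, which is then dim on every β-CB1R+/+ array and passes the filter only through β-CB1R-/- mice, so that this call carries no weight; leaving out each mouse gave 0 to 1. The number of members with an unadjusted p under 0.05, 4 as reported, was 2 with Z scores computed per array and also 2 with those the authors deposited, 2 with the methods' t test, 7 with an intensity trend, 10 with housekeeping scaling, and 1 to 7 with a mouse left out: 2 without β-CB1R+/+ replicate 1, 1 without replicate 2 and 1 without replicate 3, 7 without β-CB1R-/- replicate 1 and 2 without replicate 2. Marco was among them in all 20 (p from 0.0023 to 0.0499) and every one of these members was higher in β-CB1R-/- mice. Housekeeping scaling moved the median of all genes from −0.039 to 0.16, and with it the median of the lineage genes to 0.54, of antigen presentation from −0.17 to 0.032 and of activation from −0.095 to 0.11; over all alternatives the lineage median lay between 0.15 and 0.54. Itgam turned from 0.51 to −0.01 with the mean over probes. The same replicate numbers did not pair the mice (correlations of deviations 0.422, −0.273 and −0.0615 for replicates 1 to 3); with the replicate block, which gives no weight to β-CB1R+/+ replicate 4, 0 members passed the adjusted threshold, 5 had an unadjusted p under 0.05 (with Mrc1, again read against dim arrays only), the lineage median was 0.47 and Csf2rb had an adjusted p of 0.0925. With normexp Mrc1 was 0.35 against 1.69, Marco 0.90 against 1.57 and Runx1 0.64 against 1.38. The 7 alternatives in which Csf2rb lost its call were the block, the methods' t test and leaving out β-CB1R+/+ replicate 1, 2 or 3 or β-CB1R-/- replicate 2 or 3; Runx1 gained one with the filter on all arrays (adjusted p = 0.0323) and with housekeeping scaling (0.046). The cause was not tested.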
